A study of Mus musculus with 9 samples.

Results

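The genes described are the core of the G1 cell cycle engine: the D-type cyclins Ccnd1, Ccnd2 and Ccnd3, the E-type cyclins Ccne1 and Ccne2, the cyclin-dependent kinases Cdk4 and Cdk6, and the retinoblastoma family Rb1, Rbl1 and Rbl2. They were chosen by gene symbol, with earlier results of these data known, and make up 10 of the 23361 genes measured. The 9 libraries came from skin cells of mice 10 weeks old, sorted by flow cytometry and labelled melanocyte stem cells, which renew the pigment cells of the hair follicle. There were 3 UVB, 3 Active and 3 Quiescent libraries, where UVB is the medium-wave band of ultraviolet light. All 9 carried the genotype label TBPT, which the labels do not spell out. The treatment label was the same for every library and named both chemical depilation and UVB, so the labels do not tell whether Active cells came from depilated skin. The comparisons ask how the G1 genes differ between cells labelled UVB or Active and cells labelled Quiescent, and between UVB and Active cells.

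A cell at rest enters the cycle when D-type cyclins, which are made in response to growth signals, bind CDK4 or CDK6 and begin to phosphorylate the retinoblastoma protein and its relatives. Phosphorylation releases E2F transcription factors, which switch on E-type cyclins and the genes of DNA replication, and cyclin E with CDK2 completes the phosphorylation. The relative p130, encoded by Rbl2, is typical of resting cells, whereas p107, encoded by Rbl1, is itself an E2F target and appears as cells cycle. In human families, mutations of CDK4 or of its inhibitor gene CDKN2A predispose to melanoma.

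The libraries held 21045070 to 35131778 fragments assigned to genes. Levels are given as CPM, fragments per 1e+06 fragments of the library after TMM scaling, which allows for libraries dominated by a few transcripts. That scaling matters here, because 3 collagen genes took 2.45 to 3.49% of the fragments in UVB, 0.55 to 0.7% in Active and 23.23 to 27.71% in Quiescent libraries. The summed level of 12 melanocyte lineage genes was 940 to 1170 CPM in UVB, 8015 to 12951 CPM in Active and 87.6 to 230 CPM in Quiescent libraries. The summed level of 10 dermal fibroblast genes was 22367 to 35071 CPM in UVB, 4867 to 6171 CPM in Active and 336679 to 454956 CPM in Quiescent libraries. None of these genes was at 0 in a whole group, but Sox10, a factor that defines the melanocyte lineage, stood at 312 to 581 CPM in UVB, 551 to 661 CPM in Active and 0.295 to 3.99 CPM in Quiescent libraries. The Quiescent libraries therefore had little melanocyte RNA for their label and much RNA typical of fibroblasts. Xist, made from the inactive X chromosome, was at 736 to 1040 CPM in UVB libraries and at most 0.469 CPM in the other 6. By this gene, cells of female mice were seen in the UVB libraries alone. Sex thus moved with the group in both comparisons of UVB libraries, where its part cannot be told apart from that of UVB. The summed level of 9 myeloid and Langerhans cell genes was 1637 to 2807 CPM in UVB, 71.5 to 167 CPM in Active and 369, 2728 and 165 CPM in Quiescent replicates 1, 2 and 3, so Quiescent replicate 2 stood apart in its group. Endothelial genes summed to 156 to 274 CPM in UVB, 20.4 to 24.8 CPM in Active and 335 to 462 CPM in Quiescent libraries. T cell and mast cell genes were also higher in UVB libraries than in either other group, at 14.6 to 20.3 CPM against at most 5.36 CPM for T cell genes, and at 48.3 to 92.8 CPM against at most 10.2 CPM for mast cell genes. Genes of the hair matrix and inner root sheath summed to 15 to 101 CPM in UVB, 115 to 640 CPM in Active and 5.43 to 35.9 CPM in Quiescent libraries. Keratinocyte genes summed to 266 to 688 CPM in UVB, 785 to 1307 CPM in Active and 2165, 650 and 138 CPM in Quiescent replicates 1, 2 and 3. In each comparison below the make-up of the sorted cells moved with the group, and its part in the results was not tested. In such bulk RNA, fewer cells of a type and less RNA per cell cannot be told apart.

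All 10 genes had enough fragments to be tested in each comparison. Of the 10, 8 rose and 1 fell in UVB against Quiescent libraries, and 7 rose and 1 fell in Active against Quiescent libraries (edgeR's quasi-likelihood test, Benjamini-Hochberg adjusted p under 0.05). Over all 15078 genes tested, 49.0% passed the threshold in UVB against Quiescent libraries, 25.8% as higher and 23.2% as lower. In Active against Quiescent libraries 58.3% passed, 29.1% as higher and 29.2% as lower. The libraries did not overlap for 9 of the 10 genes between UVB and Quiescent, beside 57.6% of all genes, and for 8 of the 10 between Active and Quiescent, beside 66.2%. The median log2 fold change of the 10 genes was 2.22 in UVB and 2.31 in Active against Quiescent libraries, beside 0.02 and 0.01 over all genes tested. These comparisons share their Quiescent libraries, so they are not separate evidence. Between UVB and Active libraries 1 gene rose and 1 fell, a share of calls close to the 24.0% over all genes (14.8% higher and 9.19% lower).

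**Figure D1:**
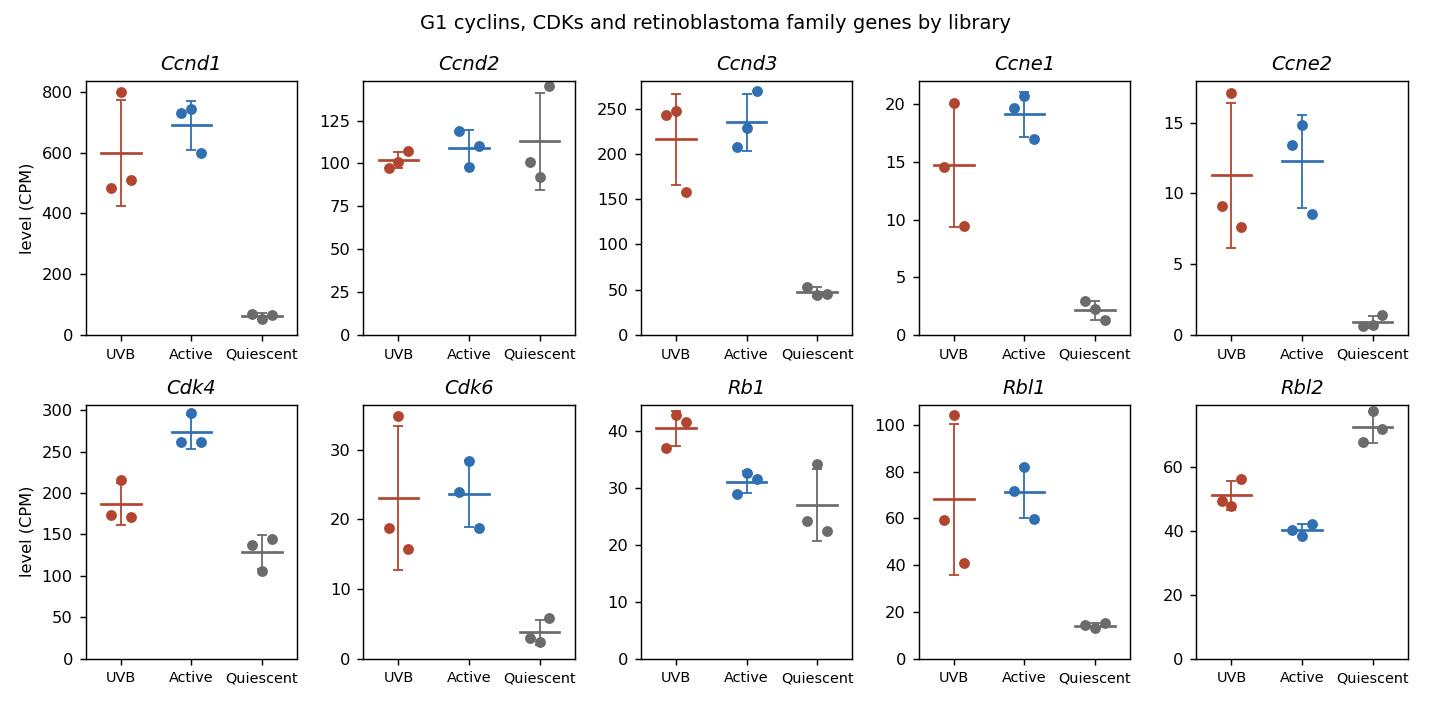
Level of each of the 10 genes in CPM (vertical axes, linear from 0, a scale per gene), with UVB, Active and Quiescent libraries from left to right; points are libraries, horizontal lines group means and error bars 1 SD (n = 3). The UVB and Active libraries stood above every Quiescent library for Ccnd1, Ccnd3, Ccne1, Ccne2, Cdk4, Cdk6 and Rbl1, and below every one for Rbl2, while Ccnd2 lay in the same range in all groups.

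Ccnd1 encodes cyclin D1, the D-type cyclin most closely tied to growth factor signalling. It had 483, 798 and 511 CPM in UVB replicates 1, 2 and 3, 730, 743 and 598 CPM in Active replicates and 71.0, 53.0 and 65.9 CPM in Quiescent replicates. No UVB or Active library came near a Quiescent one, while UVB and Active libraries overlapped. The group means were 597 ± 174 CPM in UVB, 690 ± 79.9 CPM in Active and 63.3 ± 9.31 CPM in Quiescent libraries (SD, n = 3 each). Ccnd1 was 9.43-fold higher in UVB than in Quiescent libraries, a log2 fold change of 3.24 ± 0.23 (SE, edgeR adjusted p = 2.1e-05). In Active libraries it was 10.9-fold higher than in Quiescent libraries, a log2 fold change of 3.45 ± 0.23 (edgeR adjusted p = 9.0e-06).

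Ccnd3, the D-type cyclin best known for its role in lymphocytes and differentiating tissues, followed Ccnd1 at smaller folds. Its levels were 243, 247 and 158 CPM in UVB, 207, 229 and 269 CPM in Active and 53.3, 43.9 and 45.6 CPM in Quiescent replicates. The lowest UVB library still had more Ccnd3 than any Quiescent library. Ccnd3 was 4.54-fold higher in UVB (log2 fold change 2.18 ± 0.19, edgeR adjusted p = 5.8e-05) and 4.93-fold higher in Active than in Quiescent libraries (2.30 ± 0.20, edgeR adjusted p = 2.3e-05).

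Ccnd2, the remaining D-type cyclin, did not share this pattern. It had 97.6, 101 and 107 CPM in UVB, 119, 97.7 and 110 CPM in Active and 101, 92.4 and 145 CPM in Quiescent replicates. The groups overlapped, and the widest spread was within the Quiescent group. The log2 fold change was -0.15 ± 0.17 in UVB (edgeR adjusted p = 0.491) and -0.05 ± 0.17 in Active against Quiescent libraries (edgeR adjusted p = 0.805). The sign depended on the scaling: by library size alone, which put the median of all genes at 0.74 and 0.76, Ccnd2 was at 0.59 in UVB and 0.71 in Active against Quiescent libraries, both past the threshold (edgeR adjusted p = 0.005 and 0.002). Relative to those medians it was at -0.15 and -0.04.

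Because FPKM is scaled by transcript length, the make-up of a family within a library can be given without any scaling between libraries. Ccnd2 was 6.08, 4.78 and 7.69% of the summed FPKM of the D-type cyclins in UVB, 6.29, 4.97 and 5.84% in Active and 26.8, 29.7 and 37.2% in Quiescent replicates. Ccnd1 was 46.6, 58.6 and 56.9% in UVB, 59.6, 58.6 and 49.4% in Active and 29.1, 26.4 and 26.2% in Quiescent replicates. Ccnd3 held a like share throughout, 39.8 ± 6.55% in UVB, 38.5 ± 5.59% in Active and 41.5 ± 4.31% in Quiescent libraries (SD, n = 3 each). The Quiescent make-up was thus spread over all 3 D-type cyclins, and the UVB and Active make-up lay mostly with Ccnd1 and Ccnd3. For Ccnd1 and Ccnd2 the shares did not overlap between UVB or Active and Quiescent libraries (two-sided exact permutation test, p = 0.1, the smallest that 3 against 3 allows, and 0.225 adjusted over the 18 share tests).

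**Figure D2:**
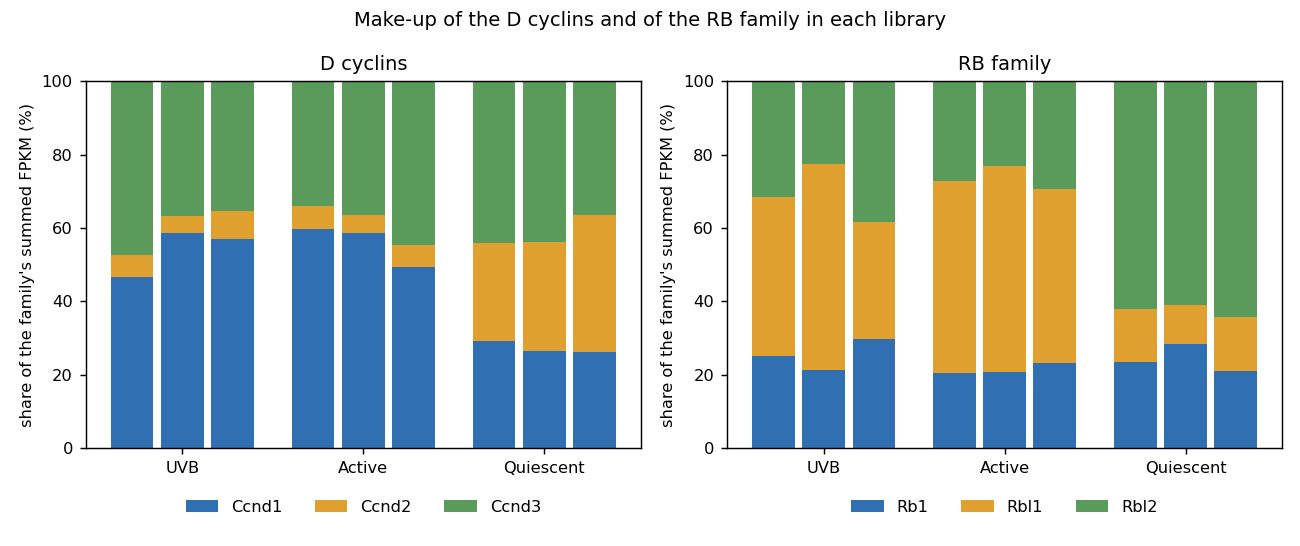
Share of each gene in the summed FPKM of its family (vertical axis, %), 1 bar per library in the order of replicates 1 to 3, for UVB, Active and Quiescent libraries from left to right; the left panel shows the D-type cyclins and the right panel the retinoblastoma family. Ccnd2 takes at most 7.69% of the bar in UVB and Active libraries and at least 26.8% in Quiescent libraries, and Rbl2 takes at least 60.9% of the bar in Quiescent libraries.

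Cdk4 and Cdk6 encode the kinases that D-type cyclins activate. Per length, Cdk4 was the most abundant of the 10 genes in 8 of 9 libraries, with Ccnd1 above it in UVB replicate 2, and Ccne2 was the least abundant in all 9. Mean Cdk4 FPKM was 155 ± 24.5 in UVB, 229 ± 18.8 in Active and 108 ± 17.4 in Quiescent libraries, beside 9.69 ± 4.54, 10.0 ± 2.11 and 1.60 ± 0.775 FPKM of Cdk6 in the same groups. Cdk4 therefore made up 94.3 ± 1.61% of the pair in UVB, 95.8 ± 0.583% in Active and 98.6 ± 0.507% in Quiescent libraries.

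Cdk4 had the smallest rise of the 7 genes that rose in both UVB and Active libraries. It had 174, 216 and 171 CPM in UVB, 262, 297 and 261 CPM in Active and 137, 106 and 144 CPM in Quiescent replicates, and no group overlapped another. Cdk4 was 1.45-fold higher in UVB (log2 fold change 0.54 ± 0.15, edgeR adjusted p = 0.016) and 2.12-fold higher in Active than in Quiescent libraries (1.08 ± 0.15, edgeR adjusted p = 3.1e-04). The UVB call rested on UVB replicate 2, without which the log2 fold change was 0.42 (edgeR adjusted p = 0.056). Cdk6 had 18.7, 34.8 and 15.7 CPM in UVB, 23.9, 28.4 and 18.8 CPM in Active and 3.05, 2.44 and 5.85 CPM in Quiescent replicates. The lowest UVB or Active library was above the highest Quiescent one. Cdk6 was 6.11-fold higher in UVB (2.61 ± 0.41, edgeR adjusted p = 9.3e-04) and 6.28-fold higher in Active than in Quiescent libraries (2.65 ± 0.41, edgeR adjusted p = 5.6e-04).

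The proximal promoter of Cdk4 is shown because it stands apart in sequence from those of the other genes. It lies on the plus strand of GRCm38.p6 at chr10:127063285-127063534, the 250 bases before the start of the gene in the RefSeq table, and capitals mark the E-box CACGTG, the palindrome that basic helix-loop-helix factors such as MYC and MITF can bind.

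Cdk4: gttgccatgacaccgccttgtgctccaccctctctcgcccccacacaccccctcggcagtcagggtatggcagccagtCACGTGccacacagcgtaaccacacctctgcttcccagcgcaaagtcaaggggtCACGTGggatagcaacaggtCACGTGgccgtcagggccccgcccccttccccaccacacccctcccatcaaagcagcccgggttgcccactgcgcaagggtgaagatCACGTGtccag

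The Cdk4 window held 4 copies of the E-box, at positions -172, -118, -98 and -11 relative to the gene start. An E-box was present in 7.15% of the 32851 promoters of 300 bases in that table, 250 before and 50 after the start, and 8 of them, 0.0244%, held 4 or more. Of the 6 genes among the 10 whose promoters were in the table, Cdk6 also held 1, and of all 27025 genes there 8.09% held at least 1. The E-box was searched after the sequences had been read, so the count is a description only.

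Ccne1 and Ccne2 encode the E-type cyclins, which activate CDK2 at the end of G1. Ccne1 had 14.6, 20.1 and 9.45 CPM in UVB, 19.7, 20.7 and 17.0 CPM in Active and 2.93, 2.26 and 1.30 CPM in Quiescent replicates. Ccne2 had 9.11, 17.1 and 7.60 CPM in UVB, 13.4, 14.8 and 8.58 CPM in Active and 0.665, 0.715 and 1.42 CPM in Quiescent replicates. For both genes every UVB and Active library lay above every Quiescent one, where Ccne2 rested on 12 to 24 fragments a library. Ccne1 was 6.71-fold higher in UVB (log2 fold change 2.75 ± 0.35, edgeR adjusted p = 3.3e-04) and 8.73-fold higher in Active than in Quiescent libraries (3.13 ± 0.35, edgeR adjusted p = 1.0e-04). By edgeR with TMM factors Ccne2 had the largest fold of the 10 genes in each comparison with Quiescent libraries, 12.2-fold in UVB (3.61 ± 0.44, edgeR adjusted p = 2.7e-04) and 13.3-fold in Active libraries (3.73 ± 0.45, edgeR adjusted p = 1.3e-04). With limma on log2(FPKM + 1), a scale that understates changes of scarce transcripts, its log2 fold changes were 1.81 and 1.95, below those of Ccnd1 at 3.12 and 3.37.

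Within the retinoblastoma family the genes moved in opposite directions. Rbl1 had 59.3, 104 and 40.9 CPM in UVB, 71.7, 82.1 and 59.9 CPM in Active and 14.3, 13.2 and 15.1 CPM in Quiescent replicates. Quiescent libraries were close to one another, whereas UVB libraries spread widely, and no UVB or Active library reached down to them. Rbl1 was 4.81-fold higher in UVB (log2 fold change 2.27 ± 0.31, edgeR adjusted p = 4.7e-04) and 5.02-fold higher in Active than in Quiescent libraries (2.33 ± 0.31, edgeR adjusted p = 2.5e-04).

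Rbl2 had 49.5, 47.9 and 56.4 CPM in UVB, 40.5, 38.6 and 42.3 CPM in Active and 67.9, 77.7 and 72.2 CPM in Quiescent replicates. The 3 groups did not overlap, with Quiescent highest and Active lowest. Rbl2 was 1.42-fold lower in UVB (log2 fold change -0.50 ± 0.10, edgeR adjusted p = 0.003) and 1.79-fold lower in Active than in Quiescent libraries (-0.84 ± 0.10, edgeR adjusted p = 1.3e-04). It was the only one of the 10 genes to fall against Quiescent libraries. That fall was relative to the other genes of the library: by library size alone the log2 fold change was 0.22 in UVB (edgeR adjusted p = 0.102) and -0.09 in Active against Quiescent libraries (edgeR adjusted p = 0.450), and -0.52 and -0.85 after subtracting the median of all genes.

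Rb1, the founding tumour suppressor of the family, varied least among its relatives. It had 37.0, 42.7 and 41.5 CPM in UVB, 28.9, 32.6 and 31.6 CPM in Active and 24.2, 34.2 and 22.4 CPM in Quiescent replicates. UVB libraries were above all others, and Active libraries lay within the range of the Quiescent ones. Rb1 was 1.5-fold higher in UVB than in Quiescent libraries (log2 fold change 0.59 ± 0.16, edgeR adjusted p = 0.016), a call lost without Quiescent replicate 1 (0.51, edgeR adjusted p = 0.057). In Active against Quiescent libraries its log2 fold change was 0.21 ± 0.16 (edgeR adjusted p = 0.305), and it passed the threshold without Quiescent replicate 2, the library with 2728 CPM of myeloid genes (0.41, edgeR adjusted p = 0.021).

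The share of the family's summed FPKM held by Rbl1 was 43.1, 56.1 and 31.8% in UVB, 52.4, 55.9 and 47.4% in Active and 14.6, 10.7 and 14.8% in Quiescent replicates. The share of Rbl2 was 30.9 ± 7.93% in UVB, 26.6 ± 3.08% in Active and 62.3 ± 1.64% in Quiescent libraries (SD, n = 3 each). Rbl2 was thus the leading transcript of the family in every Quiescent library, and Rbl1 in every Active library and in UVB replicates 1 and 2. The shares of Rbl1 did not overlap between UVB or Active and Quiescent libraries (two-sided exact permutation test, p = 0.1, the smallest possible, 0.225 adjusted over the 18 share tests).

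The promoters of these relatives are set side by side because the genes moved apart. Rbl1 is read on the minus strand at chr2:157204535-157204784 and Rbl2 on the plus strand at chr8:91069807-91070056, both in GRCm38.p6 from the RefSeq table, as the 250 bases before the gene start. Capitals mark the E2F motif in Rbl1 and, in Rbl2, the reverse complement of the cell cycle homology region motif.

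Rbl1: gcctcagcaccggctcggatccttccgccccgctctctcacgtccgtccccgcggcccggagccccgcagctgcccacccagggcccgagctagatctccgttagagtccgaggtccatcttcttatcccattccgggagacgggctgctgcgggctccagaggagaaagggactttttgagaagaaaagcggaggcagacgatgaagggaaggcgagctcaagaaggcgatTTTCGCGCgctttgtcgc
Rbl2: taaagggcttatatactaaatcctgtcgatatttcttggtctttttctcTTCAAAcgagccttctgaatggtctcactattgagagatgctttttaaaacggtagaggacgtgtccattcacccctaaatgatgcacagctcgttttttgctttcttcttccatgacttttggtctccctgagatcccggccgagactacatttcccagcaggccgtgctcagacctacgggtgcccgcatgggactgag

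The E2F motif was searched as TTTCCCGC, TTTGGCGC, TTTCGCGC or TTTGCCGC on either strand, and Rbl1 had it at position -18. Of all 32851 promoters 2.26% held it, and of the 6 genes with a promoter in the table Rbl1 alone did. The cell cycle homology region motif, which the p130 complex called DREAM and the B-Myb complex can bind, was searched as TTTGAA or TTCGAA on either strand. Rbl2 held it at position -201, as did 19.2% of all promoters. A GC box, GGGCGG on either strand, was present for 5 of the 6 genes and for 38.2% of the 27025 genes in the table, in any promoter of the gene. The cyclic AMP response element, TGACGTCA or TAACGTCA, and the AP-1 motif, TGANTCA, were in none of the 6 genes' windows, against 2.32 and 8.97% of all genes in the table. A match describes the letters and is not a bound site.

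**Figure D3:**
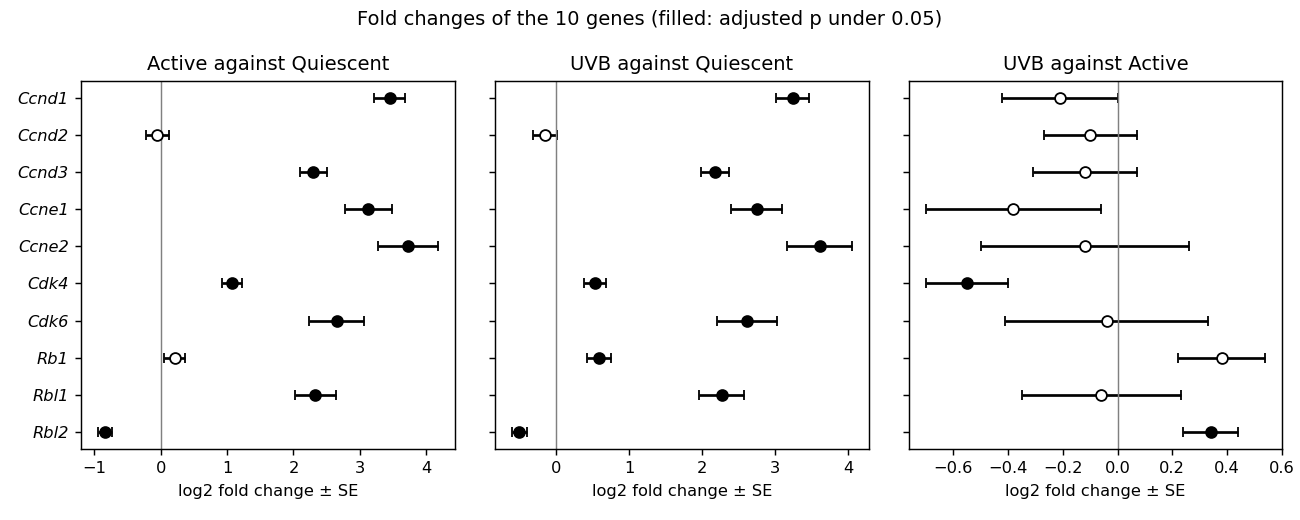
Log2 fold change of each gene (horizontal axes, points with ± 1 SE from edgeR, positive values higher in the group named first) for Active against Quiescent, UVB against Quiescent and UVB against Active libraries from left to right; filled points passed an adjusted p of 0.05. The panels against Quiescent libraries look alike and share those libraries, with Ccnd2 near 0 and Rbl2 below 0 under TMM scaling, both of which lay above or near 0 by library size alone; between UVB and Active libraries only Cdk4 and Rbl2 are filled.

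Between UVB and Active libraries, Cdk4 fell and Rbl2 rose. Cdk4 averaged 187 ± 25.5 CPM in UVB and 273 ± 20.3 CPM in Active libraries (SD, n = 3 each). It was 1.46-fold lower in UVB libraries (log2 fold change -0.55 ± 0.15, edgeR adjusted p = 0.029). Rbl2 averaged 51.3 ± 4.55 CPM in UVB and 40.5 ± 1.86 CPM in Active libraries and was 1.27-fold higher in UVB (0.34 ± 0.10, edgeR adjusted p = 0.039). The UVB and Active libraries of Rb1 did not overlap either, but its log2 fold change of 0.38 ± 0.16 missed the threshold (edgeR adjusted p = 0.120). So 3 of 10 genes had groups that did not overlap, beside 46.7% of all genes. Both calls were lost when UVB replicate 1, UVB replicate 3 or any 1 Active library was left out, with adjusted p of 0.057 to 0.108 for Cdk4 and 0.079 to 0.141 for Rbl2. The Rbl2 call was also lost by library size alone (edgeR adjusted p = 0.065), with limma and with no filter, where Cdk4 kept its call. Without Quiescent replicate 2, Rb1 also passed (0.38, edgeR adjusted p = 0.037), as it did in a fit of the UVB and Active libraries alone.

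The other 7 genes did not pass between UVB and Active libraries. Their log2 fold changes were -0.21 for Ccnd1, -0.10 for Ccnd2, -0.12 for Ccnd3, -0.38 for Ccne1, -0.12 for Ccne2, -0.04 for Cdk6 and -0.06 for Rbl1, with edgeR adjusted p of 0.420 to 0.951. Their standard errors reached 0.38 for Ccne2 and 0.37 for Cdk6, so differences of that size would not have been detectable.

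The UVB libraries spread most for Rbl1, Cdk6, Ccne1 and Ccne2, and in each of these genes replicate 2 was highest and replicate 3 lowest. The summed level of 10 proliferation genes was 1285, 2058 and 686 CPM in UVB, 1473, 1741 and 1187 CPM in Active and 42.4, 31.0 and 58.5 CPM in Quiescent replicates, so it had the same order of libraries as these 4 genes within UVB and within Active. Within Quiescent libraries Cdk6 and Rbl1 had its order, with replicate 3 highest and replicate 2 lowest, while Ccne1 was lowest in replicate 3 and Ccne2 in replicate 1. The order of Ccnd1 within UVB differed, with replicate 1 lowest. Ccnd2, Rb1 and Rbl2 stayed close together between UVB libraries, at 102 ± 4.78, 40.4 ± 3.02 and 51.3 ± 4.55 CPM (SD, n = 3). Melanocyte lineage genes, at 1101, 940 and 1170 CPM in UVB replicates, had replicate 2 lowest. These orders are of 3 libraries each and were not tested.

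The gene whose centred log2 CPM over the 9 libraries was closest to each of the 10 is given with the root mean square of the difference, out of 10916 tested genes with a mean log2 CPM of at least 2. The closest gene was Ttyh2 for Ccnd1 at 0.19, Tln2 for Ccnd3 at 0.12 and Chd3 for Ccnd2 at 0.09. Wdhd1, a DNA replication factor, was closest to Ccne1 at 0.12, and Hmmr, a mitotic spindle protein, to Ccne2 at 0.21. Mad2l1, of the spindle checkpoint, was closest to Cdk6 at 0.23, and Nudt5 to Cdk4 at 0.04. Ncapg2, a condensin subunit, was closest to Rbl1 at 0.10, and Skp2, a ubiquitin ligase subunit, was also among its closest 3 at 0.13. For Rb1 it was Fam120c at 0.11 and for Rbl2 Pdzrn3 at 0.05. The spread of a gene about its own mean sets what is close, and it ran from 0.19 for Ccnd2 to 1.74 for Ccne2 on the same scale. Among the 10 themselves the nearest pair was Ccnd3 and Rbl1 at 0.28, followed by Ccnd1 and Ccne2 at 0.33.

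Over all genes tested, 25.8% rose and 23.2% fell in UVB against Quiescent libraries, and 29.1% and 29.2% in Active against Quiescent libraries. Between UVB and Active libraries 14.8% rose and 9.19% fell. The counts of the lists below stand beside these shares. The E2F factors, only some of which the retinoblastoma proteins restrain, and their DP partners rose in 7 of 10 genes in UVB and in 7 of 10 in Active against Quiescent libraries, and none fell. Without single libraries the number that rose was 6 to 7 in each. In UVB it was also 6 with DESeq2 size factors, upper quartile factors, the DESeq2 Wald test or limma. By library size alone it was 9 in UVB and 10 in Active. E2f8 and E2f7, which repress E2F targets later in the cycle, rose most. E2f8 averaged 28.7 ± 15.0 CPM in UVB, 33.2 ± 2.98 CPM in Active and 1.04 ± 0.0741 CPM in Quiescent libraries, a log2 fold change of 4.78 in UVB (edgeR adjusted p = 6.0e-05) and 4.99 in Active against Quiescent libraries (edgeR adjusted p = 2.5e-05). E2f2, an activator, was at 2.79 (edgeR adjusted p = 8.1e-05) and 2.88 (edgeR adjusted p = 3.7e-05). E2f1, named after its values were seen, averaged 32.4 ± 14.2 CPM in UVB, 35.9 ± 2.70 CPM in Active and 33.7 ± 2.71 CPM in Quiescent libraries and did not pass (edgeR adjusted p = 0.881 and 0.796). By library size alone E2f1 was at 0.67 in UVB (edgeR adjusted p = 0.063) and 0.84 in Active against Quiescent libraries (edgeR adjusted p = 0.025).

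Of 21 genes that act at the G1 to S transition under E2F, 19 rose in UVB and 20 rose in Active against Quiescent libraries, and none fell. This list contains Ccne1, Ccne2, Rbl1 and E2f1. Its median log2 fold change was 2.51 in UVB and 3.00 in Active against Quiescent libraries. Tk1 supplies thymidine nucleotides, and Mcm5 is part of the helicase that opens DNA for replication. Tk1 averaged 50.9 ± 23.6 CPM in UVB, 76.8 ± 16.8 CPM in Active and 2.44 ± 0.429 CPM in Quiescent libraries. Mcm5 was at 3.97 in UVB (edgeR adjusted p = 7.3e-05) and 4.53 in Active against Quiescent libraries on the log2 fold change scale (edgeR adjusted p = 2.2e-05).

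Cdk2, the kinase partner of the E-type cyclins, was the one gene of that list to pass between UVB and Active libraries. It averaged 67.5 ± 14.9 CPM in UVB, 174 ± 44.6 CPM in Active and 21.7 ± 2.88 CPM in Quiescent libraries. Its log2 fold change was -1.37 ± 0.22 in UVB against Active libraries (edgeR adjusted p = 0.004). Ccne1 and Ccne2 themselves did not pass in that comparison. The median over the list was -0.47 between UVB and Active libraries, and without UVB replicate 2 the number that fell was 10 of 21. In the MuvB and B-Myb complexes, through which p107 and p130 act on cell cycle genes, 6 of 8 genes rose in each comparison with Quiescent libraries, among them Mybl2 at 4.10 in UVB and 4.45 in Active (edgeR adjusted p = 2.5e-04 and 9.9e-05). Foxm1, a factor of mitotic genes counted with them, was at 3.97 and 4.03 (edgeR adjusted p = 1.5e-04 and 7.7e-05).

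The inhibitors of CDKs were split. Of 7 genes, 4 rose and 2 fell in UVB, and 5 rose and 2 fell in Active against Quiescent libraries. Cdkn2a, whose products inhibit CDK4 and CDK6 and stabilize p53, averaged 46.4 ± 10.4 CPM in UVB, 49.9 ± 10.1 CPM in Active and 1.07 ± 0.176 CPM in Quiescent libraries. Its log2 fold change was 5.45 in UVB (edgeR adjusted p = 3.7e-06) and 5.55 in Active against Quiescent libraries (edgeR adjusted p = 2.3e-06), and it was the largest of the list. Cdkn2d, another inhibitor of CDK4 and CDK6, was at 1.52 and 1.79 (edgeR adjusted p = 0.003 and 8.9e-04). Cdkn1c, an inhibitor linked to stem cell rest, averaged 8.35 ± 7.19 CPM in UVB, 5.16 ± 0.284 CPM in Active and 29.3 ± 7.64 CPM in Quiescent libraries and fell by 1.81 in UVB and by 2.5 in Active against Quiescent libraries on the log2 scale (edgeR adjusted p = 0.020 and 0.004). By library size alone Cdkn1c was at -1.07 in UVB (edgeR adjusted p = 0.091) and -1.74 in Active against Quiescent libraries (edgeR adjusted p = 0.014). Cdkn1b, the inhibitor p27, was at -0.77 and -0.73 (edgeR adjusted p = 7.7e-04 and 6.9e-04), and by library size alone at -0.05 and 0.02, neither past the threshold. In Active against Quiescent libraries the number that rose was 3 without UVB replicate 1, Active replicate 2, Active replicate 3 or Quiescent replicate 1, and 2 without Active replicate 1 or Quiescent replicate 2. In UVB against Quiescent libraries the number that rose was 3 without any 1 UVB or Active library or Quiescent replicate 1, and 2 without Quiescent replicate 2. It was also 3 with DESeq2 size factors in edgeR, in a fit of the 2 groups compared and with a replicate block. The number that fell there was 1 without UVB replicate 1 or Quiescent replicate 3.

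Of 10 genes that activate CDKs, 6 rose and 2 fell in UVB, and 7 rose and 2 fell in Active against Quiescent libraries. Those that rose included Cdk1, the mitotic kinase, at 4.52 in UVB and 5.10 in Active (edgeR adjusted p = 4.4e-05 and 1.4e-05), and Cks2, a CDK-binding subunit, at 3.37 and 4.11 (edgeR adjusted p = 3.7e-05 and 8.9e-06). The 2 that fell, named after their values were seen, were Cdk7 and its cyclin Ccnh, subunits of the CDK-activating kinase. Cdk7 was at -0.87 in UVB and -1.12 in Active against Quiescent libraries (edgeR adjusted p = 0.002 and 4.0e-04), and by library size alone at -0.13 and -0.36 (edgeR adjusted p = 0.403 and 0.037). Ccnh was at -0.42 and -0.40 (edgeR adjusted p = 0.012 and 0.011), and by library size alone it passed as higher, at 0.31 and 0.35 (edgeR adjusted p = 0.021 and 0.011). The list then had 9 higher and 0 lower genes in UVB, and 9 higher and 1 lower in Active against Quiescent libraries. With TMM factors the number that fell was 1 without UVB replicate 1 in UVB, and 1 without Active replicate 2 in Active against Quiescent libraries.

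Of 12 genes listed as chromatin partners of the retinoblastoma proteins, 9 rose and none fell in UVB, and 9 rose and 3 fell in Active against Quiescent libraries. This list contains Rbl1, itself a member of the retinoblastoma family described above, which is among those that rose in both comparisons. Dnmt1, the maintenance DNA methyltransferase, was at 2.65 in UVB and 2.74 in Active (edgeR adjusted p = 1.6e-04 and 7.3e-05). Rbbp4, a histone-binding protein shared with MuvB, averaged 242 ± 36.8 CPM in UVB, 363 ± 40.6 CPM in Active and 165 ± 8.96 CPM in Quiescent libraries. Arid4a and Arid4b, which encode retinoblastoma-binding proteins, and Kdm5a, a histone demethylase, were the 3 that fell in Active libraries and were named after their values were seen. By library size alone none of them passed as lower in Active against Quiescent libraries: Arid4a was at 0.14 (edgeR adjusted p = 0.439), Arid4b at -0.15 (edgeR adjusted p = 0.454), and Kdm5a passed as higher at 0.43 (edgeR adjusted p = 0.003). That scaling gave 10 higher and 0 lower genes of the list in Active, and 12 higher in UVB against Quiescent libraries. Arid4a, Arid4b and Kdm5a were also the 3 that rose in UVB against Active libraries, with Arid4a at 0.95 ± 0.15 (edgeR adjusted p = 0.004), while Rbbp4 and Rbbp7 fell. That comparison kept 1 higher gene without UVB replicate 1, UVB replicate 3, Active replicate 1 or Active replicate 2. The number that fell there was 0 without UVB replicate 1 or Active replicate 2, and 1 without UVB replicate 3, Active replicate 1, Active replicate 3 or Quiescent replicate 1.

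**Figure D4:**
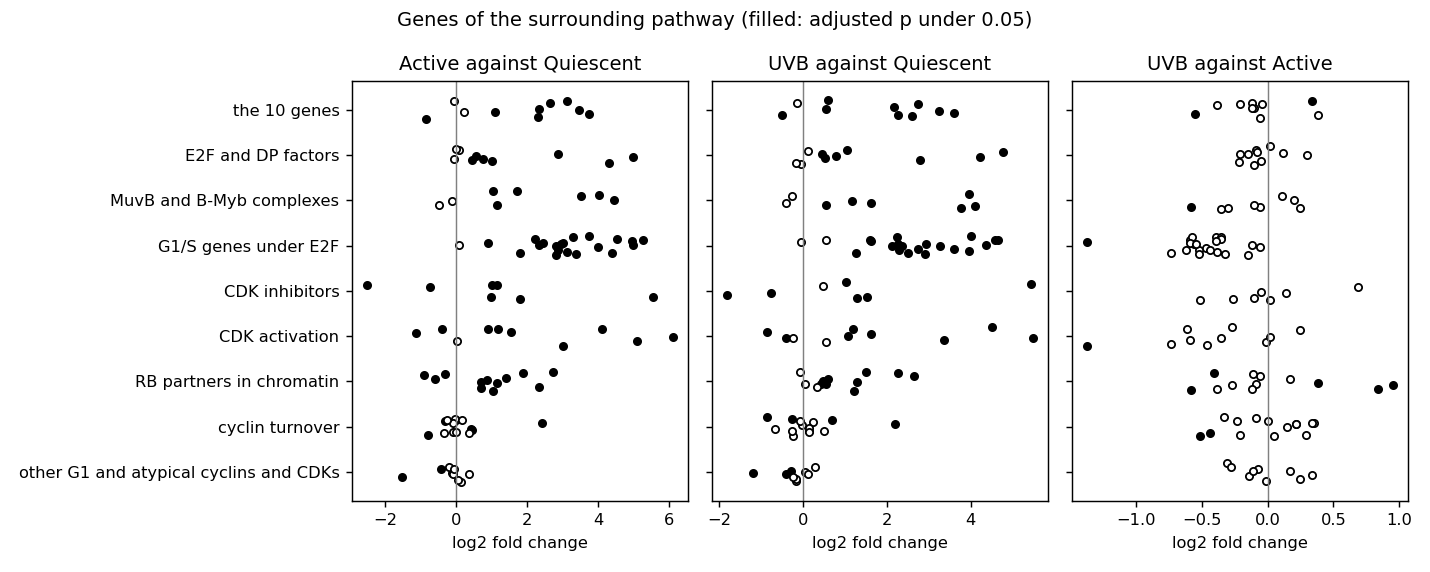
Log2 fold change of each gene of the pathway lists (horizontal axes, 1 point per gene, lists down the page, positive values higher in the group named first) for Active against Quiescent, UVB against Quiescent and UVB against Active libraries; filled points passed an adjusted p of 0.05. The G1 to S genes lie to the right of 0 in both panels against Quiescent libraries, where 19 of 21 rose in UVB and 20 of 21 in Active, except for E2f1 at -0.06 in UVB, and mostly to the left of 0 between UVB and Active libraries, where 1 passed; positions are under TMM scaling, and by library size alone the points of the first panels lie further right.

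Of 14 genes of cyclin turnover, 2 rose and 2 fell in UVB, and 3 rose and 2 fell in Active against Quiescent libraries, with medians of 0.06 and -0.03. Skp2, which marks p27 for destruction, rose in both, at 2.2 in UVB and 2.41 in Active (edgeR adjusted p = 3.2e-04 and 1.2e-04). Without Quiescent replicate 3 the number that rose in UVB was 5. The number that fell was 1 in UVB without UVB replicate 1, UVB replicate 3, Active replicate 2, Active replicate 3 or Quiescent replicate 1, and 1 in Active without Active replicate 1, Active replicate 3 or Quiescent replicate 1. Of 9 other G1 and atypical cyclins and CDKs, none rose in either comparison with Quiescent libraries, while 3 fell in UVB and 2 in Active libraries. Over all genes tested 23.2% fell in UVB and 29.2% in Active libraries. Ccng2, a cyclin that is high in resting cells, fell most, at -1.20 in UVB and -1.53 in Active (edgeR adjusted p = 9.3e-04 and 1.6e-04). Without Quiescent replicate 3, 1 of these rose in UVB and 2 in Active libraries. The counts of this list and that of turnover depended on the scaling: by library size alone 8 of 9 and 11 of 14 rose in each of the comparisons with Quiescent libraries.

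The position of the genes limits what the counts can tell apart. In the GENCODE M21 annotation of GRCm38, 8 of the 10 genes share 361 to 1100 exonic bases with a gene on the opposite strand, and none with a gene on the same strand, while Ccne1 and Rbl1 share none. The kit kept the strand, but the setting used in counting was not given, so reads of these pairs cannot be told apart. Cdk4 shares 641 bases with Tspan31, which had 1484 to 2853 fragments a library, and Rbl2 shares 693 bases with Aktip, which had 770 to 1276. Aktip itself fell in UVB at -0.76 and in Active at -0.33 against Quiescent libraries (edgeR adjusted p = 4.7e-04 and 0.023), the direction of Rbl2. Between UVB and Active libraries Aktip fell at -0.43 (edgeR adjusted p = 0.020), where Rbl2 rose. Tspan31 fell in UVB against Quiescent libraries at -0.38 (edgeR adjusted p = 0.029), where Cdk4 rose. Ccne2, with 12 to 24 fragments in Quiescent libraries, shares 609 bases with Ints8, which had 559 to 2183 fragments a library. Ccnd3 shares 361 bases with Bysl, a ribosome assembly factor that itself rose in UVB at 1.53 and in Active at 1.77 (edgeR adjusted p = 1.6e-04 and 4.1e-05). Ccnd1 shares 1100 bases with Oraov1, which had at most 556 fragments a library, beside at least 889 for Ccnd1. Oraov1 fell in UVB against Quiescent libraries at -0.47 (edgeR adjusted p = 0.014), where Ccnd1 rose. The part of the opposite-strand genes in the levels was not tested.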

How the data were processed

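RNA was sequenced in 9 libraries, 3 per group by the labels, which do not say whether replicates came from separate animals, so p-values measure only the spread between these libraries. Per the labels' protocols, poly(A) RNA was prepared with a directional kit. Per the submitters' processing notes, cutadapt 1.8, TopHat2 2.0.13, Cuffdiff 2.2.1 and mm10 were used. The sources used here name no run settings, annotation or strand setting. The deposited estimated counts are the authors' Cuffdiff fragments per gene, whole to within 1e-06 for all 10 genes. The deposited FPKM values are the authors' own scaled fragments per kilobase and per 1e+06 fragments. Of all values 18 were marked as failed by Cuffdiff, none for the 10 genes.

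Estimated counts were rounded, filtered with filterByExpr (15078 genes kept, 8283 removed) and passed to edgeR 4.0.16 under R 4.3.3 (two-sided quasi-likelihood test, TMM factors of 1.163 to 1.225 in UVB and Active and 0.660 to 0.748 in Quiescent libraries, 1 fit of all 9 libraries). Benjamini-Hochberg adjustment covered all genes tested, with a threshold of 0.05. The common biological coefficient of variation was 0.28. Shares used FPKM and exact permutation tests. Skp1 was matched as Skp1a, and Cdk3 was not analysed here.

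The genes and lists were chosen with earlier results of these data known. All 10 genes were named, and up to 4 genes per list with the smallest adjusted p, besides those said to be named after their values were seen. On simulated data for UVB against Quiescent, 97.0% of genes changed by 4 times and 23.9% of those changed by 2 times were recovered among 14953. The shares were 100.0% and 25.4% among 15012 for Active against Quiescent, and 95.5% and 23.9% among 15001 for UVB against Active. False calls numbered 3, 4 and 2 in these simulations. They gave every gene the common coefficient of variation of 0.28 and equal means in all groups apart from the changed genes. They held no shift in the make-up of the libraries, so these figures do not give the recovery in the real data. Alternatives were other scaling factors, DESeq2 1.42.0, limma 3.58.1 on log2(FPKM + 1) and log2(FPKM + 0.1), other filters, a fit of the 2 groups compared, a replicate block and leaving out each library. Promoters are from RefSeq, GRCm38.p6.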

Additional observations from a re-analysis of the deposited data

How the results depend on the processing

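Of the alternative fold changes of the 10 genes, 531 kept their direction and side of the threshold, 19 lost the call, 4 gained it and 16 changed sign. By library size alone Ccnd2 was at 0.59 in UVB and 0.71 in Active against Quiescent libraries and Rbl2 at 0.22 in UVB against Quiescent libraries, because this scaling moved the median of all genes to 0.74 and 0.76. The calls then split into 8746 higher and 1246 lower genes in UVB, and 8651 higher and 2206 lower in Active against Quiescent libraries, beside 3895 and 3498, and 4390 and 4396, with TMM factors. Leaving out single libraries gave Ccnd2 log2 fold changes of -0.27 to 0.07 in UVB and -0.18 to 0.17 in Active against Quiescent libraries. In UVB against Active libraries it gave -0.23 to 0.06 for Ccnd3, -0.56 to 0.09 for Ccne2, -0.47 to 0.17 for Cdk6 and -0.51 to 0.20 for Rbl1, none of them past the threshold. The cause of these sign changes was not tested. The number of the 10 genes called between UVB and Active libraries, 2, was 1 by library size alone, with limma on log2(FPKM + 1) or log2(FPKM + 0.1) and with no filter. In these settings Rbl2 lost its call and Cdk4 kept it. The number was 3 in a fit of the 2 groups compared, and 0 to 3 without single libraries. All genes called there numbered 1452 to 4226 without single libraries, against 3612. Shares of estimated counts in place of FPKM, which leave out transcript length, put Ccnd1 at 36.3 and 38.2 points above Quiescent in UVB and Active, Ccnd2 at -38.6 and -39.5 points, and Cdk6 at 7.87 and 5.15 points. Whether replicate numbers pair the libraries could not be settled, as the labels do not say what a number marks. Deviations of libraries with the same number correlated at -0.171 to 0.231, and those with different numbers at -0.209 to 0.260, ranges that overlap. With a replicate block 0 of the 10 genes passed between UVB and Active libraries, with adjusted p of 0.064 for Cdk4 and 0.067 for Rbl2, and over all genes 6809 passed in UVB against Quiescent, 8223 in Active against Quiescent and 2830 in UVB against Active libraries. At 12 to 24 fragments, depth limits Ccne2 in Quiescent libraries.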
